A study of Homo sapiens with 2 samples.

Results

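hsa-miR-22-3p and hsa-miR-22-5p are the mature miRNAs cut from the arms of a single hairpin, the product of the human gene MIR22. They are 2 of the 859 mature miRNAs, and of the 5475 small RNA features, that were counted in A549 cells. Both arms were taken by name, and miR-22 was chosen by its counts and its hypoxia-to-normoxia ratio in these same libraries, so its levels and ratios are given as a description with no test. A549 is a human lung adenocarcinoma cell line. It was grown in DMEM with FCS and kept for 24 h either in normoxia, at 20% O2, or in hypoxia, at 1.2% O2, before lysis. No other treatment is named for either group, and the model is limited to 1 cell line with 1 library per condition. RNA was ligated, reverse transcribed, amplified by PCR and size-selected with a small RNA kit for the SOLiD platform.

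A miRNA is cut from a hairpin in a longer transcript, in the nucleus by Drosha and in the cytoplasm by Dicer, which leaves a short duplex of the 5p arm and the 3p arm. An Argonaute protein keeps one arm as the guide, which pairs with target mRNAs mainly through its seed, and the other arm is usually degraded. MIR22 lies in an exon of the non-coding transcript MIR22HG, its 3p arm is the usual guide, and mRNAs reported as its targets include HIF1A, HDAC4, TET2 and ESR1.

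The mature arms and the hairpin are shown because the counted rows hold these sequences and because neither seed recurs among the listed miRNAs. Bases 2 to 8, the seed, are in capitals in the mature sequences, which come from RefSeq (GRCh38.p14), and both arms are in capitals in the hairpin, which comes from GENCODE v29. All are written 5′ to 3′.
hsa-miR-22-3p: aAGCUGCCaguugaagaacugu
hsa-miR-22-5p: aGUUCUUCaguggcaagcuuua
MIR22 hairpin: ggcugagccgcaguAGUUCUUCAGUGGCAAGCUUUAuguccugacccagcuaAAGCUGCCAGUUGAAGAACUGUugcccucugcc

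In GRCh38 the hairpin of 85 bases lies at chr17:1713903-1713987 on the minus strand, with the 3p arm at chr17:1713914-1713935 and the 5p arm at chr17:1713952-1713973. All 19 of the 19 annotated transcripts of the lincRNA gene MIR22HG (chr17:1711493-1717174, minus strand) hold the hairpin within an exon. The deposited table uses hg19 and lists each arm with 1 extra base on either side, at chr17:1617207-1617230 for miR-22-3p and chr17:1617245-1617268 for miR-22-5p. Without those outer bases, both listed sequences equal the RefSeq arms of the same name, as do 653 of the 687 listed mature miRNAs whose names are in RefSeq. Each arm is 22 bases long, with a GC content of 45.5% for the 3p arm and 40.9% for the 5p arm. In the predicted fold of the hairpin (RNAfold, -39.8 kcal/mol), 19 of the 22 bases of the 3p arm pair with the 5p arm, 1 of them as a G-U pair, and 16 bases lie between the arms. All 7 seed bases of the 3p arm are paired there. The first 4 bases of miR-22-3p make 2 G-C and 2 A-U pairs, and the first 4 of miR-22-5p make 1 G-C and 3 A-U pairs.

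No other listed mature miRNA carries the seed AGCUGCC of miR-22-3p, and among the 2370 human mature names in RefSeq it is found in 1, miR-22-3p itself. The seed GUUCUUC of miR-22-5p is likewise found in 1 name, while its bases 2 to 7 are shared with miR-2116-5p, which had 54 and 99 counts in normoxia and hypoxia. A seed held by a single miRNA is common in the table, at 609 of 701 distinct seeds. Apart from the row of the hairpin itself, no feature holds the sequence of either arm. The nearest listed mature sequences are 8 edits away (substitutions, insertions or deletions), miR-21-3p and miR-320e for the 3p arm and miR-103a-2-5p for the 5p arm, and the arms differ from each other by 11 edits.

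The libraries hold 6449337 counts in normoxia and 13115226 in hypoxia, of which 4514818 (70.0%) and 8600160 (65.6%) fell on mature miRNAs. Levels are given as CPM, counts per 1000000 mature miRNA counts, and are not divided by length, since a read covers a whole mature miRNA. Their exact Clopper-Pearson 95% intervals, like the exact conditional binomial intervals of ratios, cover counting error only, since PCR reads without molecular identifiers are not independent molecules and no replicate shows the spread between cultures. miR-21-5p held 72.2% of mature miRNA counts under normoxia and 68.4% under hypoxia, so its share bears on every CPM value. All 5 miRNAs taken as epithelial markers were listed. Of these, miR-21-5p (722090 and 683588 CPM in normoxia and hypoxia) and miR-31-5p (20200 and 28730 CPM) were among the most abundant miRNAs. Whether miR-21-5p and miR-31-5p are specific to epithelial cells was not tested. The defining epithelial miRNAs miR-200c-3p (24.1 and 24.8 CPM) and miR-141-3p (37.2 and 25.5 CPM) were low, and miR-200b-3p was at 880 and 1085 CPM. Of 11 markers of other cell types, 8 were listed, with a summed level of 252 CPM in normoxia and 268 CPM in hypoxia. Most of that sum was the endothelial miR-126-3p, at 179 and 190 CPM, followed by the neural miR-9-5p at 51.4 and 52.4 CPM (232 and 451 counts). In both libraries miR-126-3p and miR-9-5p were above miR-200c-3p and miR-141-3p and below miR-200b-3p. The neural miR-124-3p had 3 and 6 counts and the liver marker miR-122-5p 4 and 4. Of the blood markers, miR-451a had 82 and 191 counts (18.2 and 22.2 CPM), miR-142-3p 5 and 6 and miR-142-5p 2 and 2, and miR-223-3p was not listed. Of the muscle markers, miR-133a had 0 and 18 counts, and miR-1 and miR-206 were not listed. miR-210, the best-known miRNA induced through HIF, had 22849 counts in hypoxia against 4307 in normoxia, which gives a log2 ratio of 1.48 (1.43 to 1.52).

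miR-22-3p was one of the most abundant miRNAs of these cells in both conditions. It received 105496 counts in normoxia, or 23367 CPM (23228 to 23506), and 157214 counts in hypoxia, or 18280 CPM (18191 to 18370). The library in hypoxia thus held more counts of miR-22-3p but a smaller share, since its mature total was 1.90 times as deep. miR-22-3p made up 2.34% of mature counts under normoxia and 1.83% under hypoxia. With miR-21-5p left out of the total, these shares were 8.41% and 5.78%.

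miR-22-5p, the arm usually lost, was detected in both libraries at a far lower level. It received 881 counts in normoxia, or 195 CPM (182 to 208), and 1717 counts in hypoxia, or 200 CPM (190 to 209). Those intervals overlap. Its counting error, as a coefficient of variation, was 3.37% in normoxia and 2.41% in hypoxia, against 0.308% and 0.252% for miR-22-3p.

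**Figure D1:**
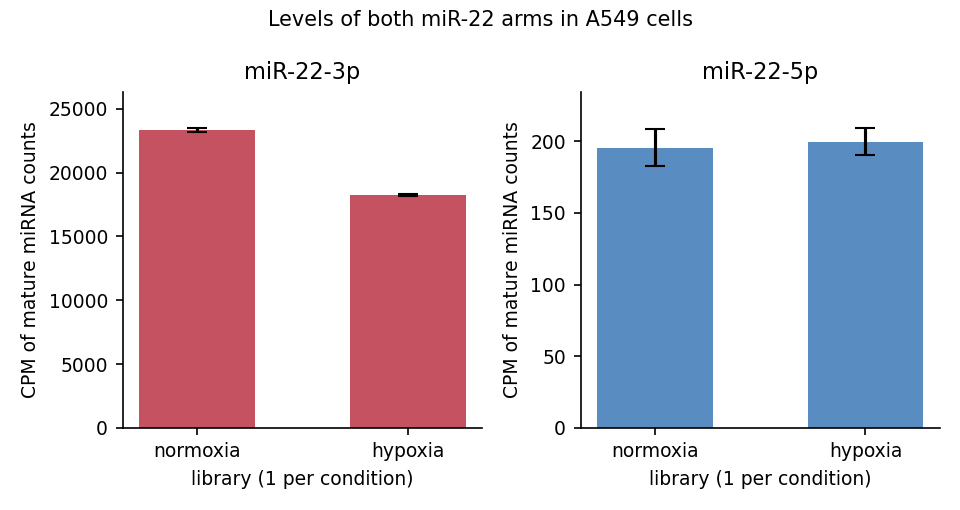
Level of miR-22-3p (left) and miR-22-5p (right) in CPM of mature miRNA counts, in the normoxia and hypoxia libraries (1 each), with axes of different range that start at 0. Bars are the values and error bars exact 95% counting intervals, which lie apart for miR-22-3p (23367 and 18280 CPM) and overlap for miR-22-5p (195 and 200 CPM).

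In the order of mature miRNAs by counts, miR-22-3p was at rank 2 in normoxia and rank 4 in hypoxia. In normoxia it lay below miR-21-5p and just above miR-23b-3p (21910 CPM, 21776 to 22046) and miR-31-5p (20200 CPM), and its interval did not overlap that of miR-23b-3p. Counting intervals do not cover differences in ligation or PCR between sequences, arms included, which were not measured here. They therefore do not settle the order of close levels. In hypoxia both of these miRNAs lay above it, miR-31-5p at 28730 CPM and miR-23b-3p at 27306 CPM, and the next below was miR-19b-3p at 13882 CPM. The change of place thus came with a lower value for miR-22-3p and higher values for both neighbours. When counts were summed over miRNAs with the same seed, the seed of miR-22-3p was at rank 3 in normoxia and rank 5 in hypoxia. The 5 listed miRNAs of the miR-30 seed, at 24053 and 30268 CPM together, lay above it in both libraries.

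miR-22-5p was at rank 114 in normoxia and rank 112 in hypoxia. Its neighbours in normoxia were miR-9-3p (202 CPM) above and miR-27a-5p (183 CPM) below, and in hypoxia miR-24-2-5p (200 CPM) above and miR-340-5p (198 CPM) below. The counting intervals of these neighbours overlapped that of miR-22-5p, so its exact place among them cannot be read.

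**Figure D2:**
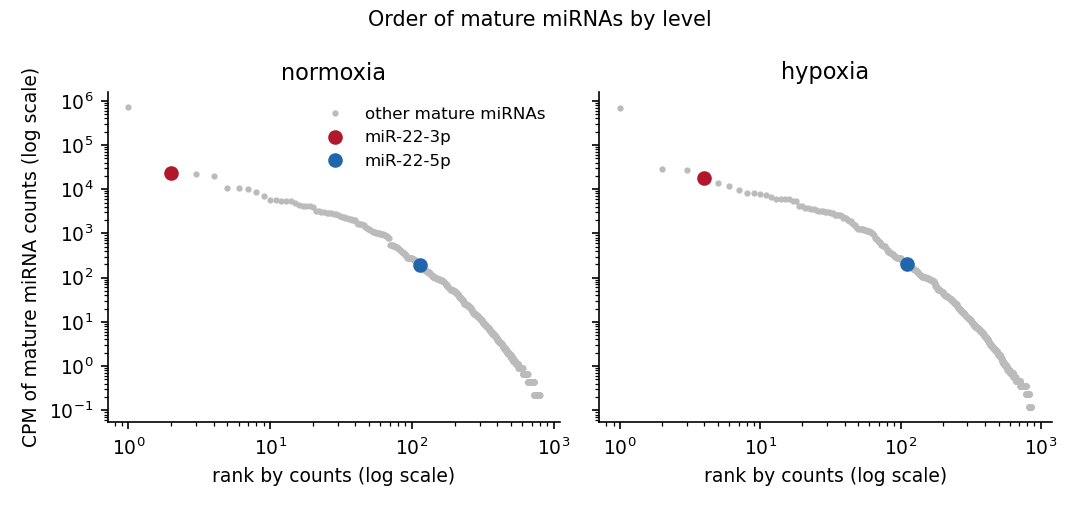
Level of each detected mature miRNA (CPM, log scale) against its rank by counts (log scale) in normoxia (left, 795 detected) and hypoxia (right, 852 detected). The red point, miR-22-3p, moves from rank 2 to rank 4, and the blue point, miR-22-5p, lies near rank 114 and rank 112.

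miR-22-3p had a log2 ratio, hypoxia over normoxia, of -0.35 (-0.37 to -0.34), or 0.782 times its level in normoxia. For miR-22-5p it was 0.03 (-0.09 to 0.15), 1.02 times. Scaled to the mature total, the 3p arm was thus lower in hypoxia beyond counting error, and the 5p arm was within counting error of no difference. Other scalings shift all ratios together, by -0.11 with TMM, -0.07 with DESeq2 size factors, -0.09 with the total of all features, -0.19 without miR-21-5p and -0.20 when the 10 most abundant of each library (11 in all) were left out. miR-22-3p was below 0 under each of these, from -0.42 with DESeq2 size factors to -0.55 without the most abundant miRNAs. The sign of miR-22-5p was not fixed, since it was below 0 under all 5 of these scalings, down to -0.16 (-0.28 to -0.04).

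**Figure D3:**
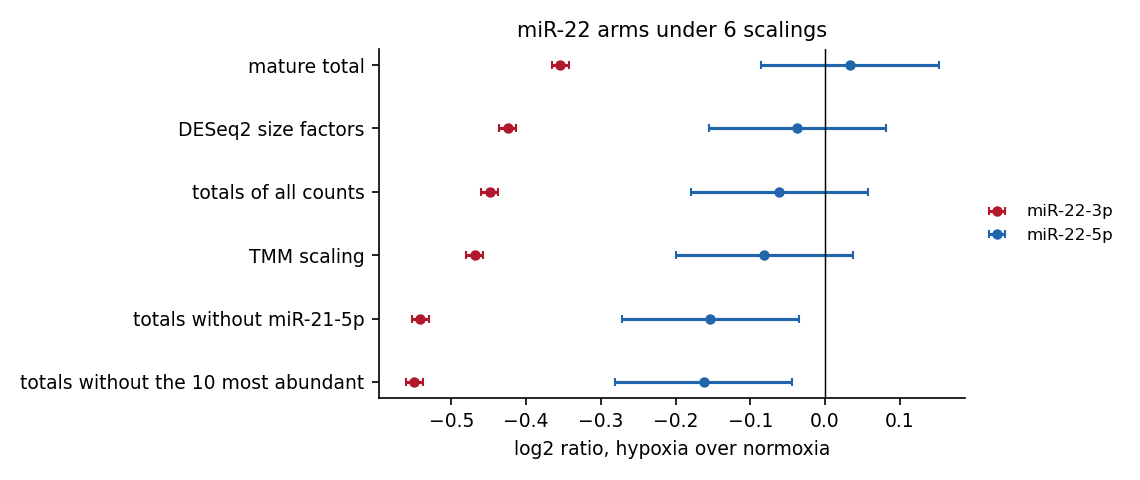
log2 ratio of hypoxia over normoxia for miR-22-3p (red) and miR-22-5p (blue) under 6 scalings of the same counts, with exact 95% counting intervals as bars. miR-22-3p lies between -0.55 and -0.35 and miR-22-5p between -0.16 and 0.03, and the gap between the arms is the same under every scaling.

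Both arms were set among the 339 mature miRNAs, miR-22 included, with a mean log2 CPM above 3 (prior count of 2). Their log2 ratios had a median of 0.08 and an SD of 0.51. miR-22-3p was 0.43 below that median (-0.43 as a difference) and miR-22-5p 0.05 below it (-0.05), and these differences are not moved by the choice of scaling. Of the 339, 58 had a lower ratio than miR-22-3p and 148 a lower ratio than miR-22-5p. By a rule of size, which asks for a log2 difference of 0.9 or more up or down, 12 miRNAs were higher in hypoxia (3.54%) and 11 lower (3.24%), and 0 of the 2 arms of miR-22 passed it. The split was 8 higher and 15 lower with TMM (34.8% higher, in place of 52.2%) and 5 and 18 without the most abundant miRNAs (21.7%).

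Among abundant miRNAs, few had a lower ratio than miR-22-3p. Of the 34 with at least 10000 counts in normoxia, 2 had a lower ratio, miR-20a-5p (-0.55) and miR-16-5p (-0.52), and 31 had a higher one. The median of the other 33 was 0.20, and 11 of them were below 0. In CPM of the mature total, miR-22-3p was 5086 CPM lower in hypoxia, the largest such difference after that of miR-21-5p (38501 CPM) and ahead of miR-20a-5p (1741 CPM) and miR-16-5p (987 CPM). The largest differences the other way were those of miR-31-5p (8530 CPM) and miR-23b-3p (5396 CPM).

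**Figure D4:**
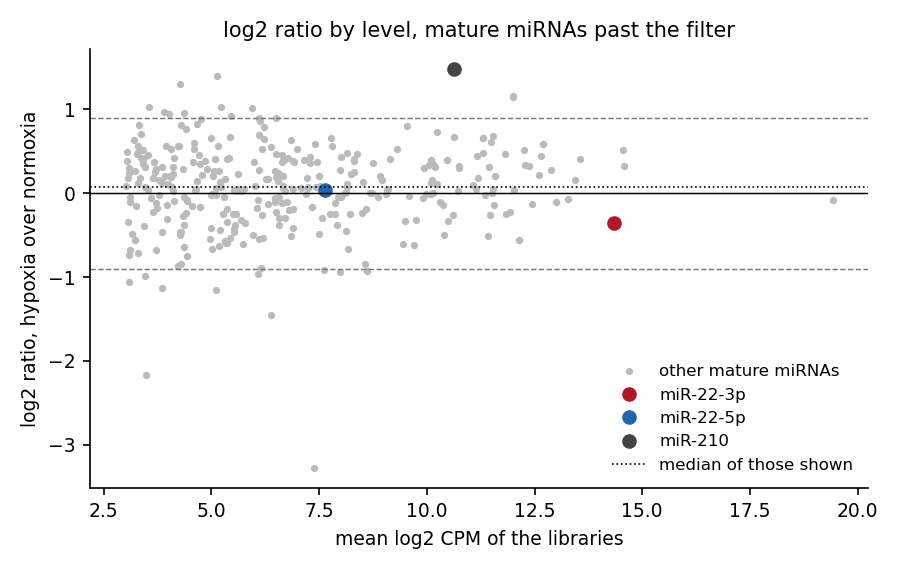
log2 ratio of hypoxia over normoxia against the mean log2 CPM of both libraries for the 339 miRNAs with a mean log2 CPM above 3, scaled to the mature total, with dashed lines at the rule of size (0.9 and -0.9) and a dotted line at the median (0.08). miR-22-3p, near the right-hand end, lies at -0.35, miR-22-5p at 0.03 and miR-210 at 1.48.

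The ratio of the arms needs no scaling between libraries. There were 120 counts of miR-22-3p per count of miR-22-5p in normoxia (112 to 128) and 91.6 in hypoxia (87.3 to 96.1). The 5p arm was accordingly 0.828% of both arms in normoxia (0.775% to 0.884%) and 1.08% in hypoxia (1.03% to 1.13%). The log2 of the arm ratio was lower in hypoxia by a difference of -0.39 (counting standard error 0.06, interval -0.50 to -0.27). The 3p arm was the more abundant in both conditions.

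The shift of the arm ratio of miR-22 was of a size seen in many hairpins. It was set beside 65 other hairpins with at least 50 counts for each arm in each library. This minimum leaves out hairpins whose minor arm is rarer, such as miR-19a (14079 counts of the 3p arm and 2 of the 5p arm in normoxia) and miR-25 (12958 and 24), so the counts that follow do not say how common a preference as strong as that of miR-22 is among all hairpins. Of the 65, the 3p arm was the more abundant in 19 in normoxia and 21 in hypoxia. The ratio of 3p to 5p was higher than that of miR-22 in 3 of them in normoxia and 4 in hypoxia. Those 3 were miR-23b (1030 in normoxia, 483 in hypoxia), miR-193b (407 and 507) and miR-29c (169 and 111), and the hairpin above it only in hypoxia was miR-221 (51.7 and 149). In normoxia miR-221 was the next below miR-22, followed by miR-101 (18.6 and 14.5) and miR-27b (17.1 and 12.04). Counting preference for either arm, 11 hairpins were more uneven in normoxia and 13 in hypoxia. The change of the arm ratio was at least as large in 35 of the 65 (53.8%), and the median absolute change over the 65 was 0.43 on the log2 scale. With the mature total, the arms had ratios of opposite sign in 32 (49.2%), with the 3p value below 0 and the 5p value above it in 13 of these. These signs make no allowance for counting error and can turn with the scaling. For miR-22 the 3p value was below 0, and the 5p value, 0.03, was within counting error of 0. Hairpins are not replicates, and these counts describe where miR-22 lies.

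**Figure D5:**
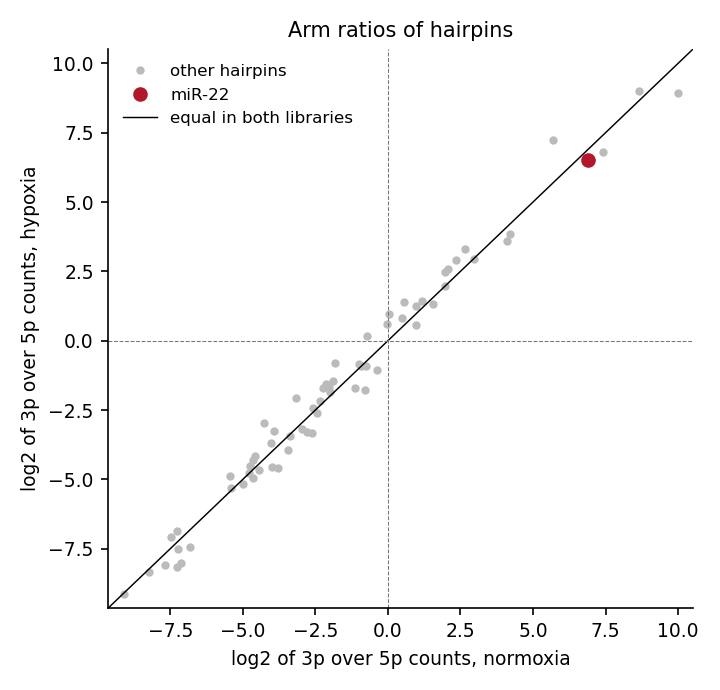
log2 of 3p over 5p counts in hypoxia against normoxia for 66 hairpins with at least 50 counts per arm in each library, with a diagonal at equality. miR-22 (red) lies at 6.90 and 6.52, far above 0, where the arms are equal, and just below the diagonal.

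The table also has a row for the MIR22 hairpin, listed as a 95-base feature at chr17:1617191-1617285 in hg19 that holds the whole of the 85 bases. It received 9 counts in normoxia and 21 in hypoxia. Per 100000 counts of both arms this was 8.46 (3.87 to 16.1) and 13.2 (8.18 to 20.2), and the log2 ratio of its CPM, 0.29, had a wide interval (-0.89 to 1.60). Of 37 other hairpins with a row of their own and at least 10000 arm counts in normoxia, 35 had more hairpin counts per arm count in each library, with medians of 85.0 and 93.6 per 100000. The sources used here do not say how reads were divided between hairpin and mature rows.

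The listed miRNAs nearest to MIR22 on chromosome 17 are those of the cluster of miR-132 and miR-212, known for its induction by CREB. They lie 335953 to 336352 bases away in hg19. Within 1 Mb, no other mature miRNA is listed. miR-132-3p had 300 counts (66.4 CPM) under normoxia and 1062 (123 CPM) under hypoxia, for a log2 ratio of 0.89 (0.71 to 1.08). miR-212-3p had 113 and 341 counts, a log2 ratio of 0.66 (0.35 to 0.98). miR-132-5p (32 and 96 counts) and miR-212-5p (10 and 36 counts) were at 0.66 and 0.92, with intervals of 0.06 to 1.28 and -0.12 to 2.09. With the mature total, the intervals of miR-132-3p, miR-212-3p and miR-132-5p lay above 0, and that of miR-22-3p below it. Under the other 5 scalings, whose shifts run from -0.07 to -0.20, the intervals of miR-132-3p and miR-212-3p still lay above 0, while that of miR-132-5p reached below 0 and no direction can be read for miR-212-5p. Their levels were far lower, and miR-22-3p was 232-fold above their sum in normoxia and 102-fold in hypoxia.

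Among the 108 miRNAs with at least 1000 counts in each library, those with the log2 ratio nearest to that of miR-22-3p were miR-15b-3p (-0.33), let-7i-5p (-0.33), miR-1260a (-0.38), miR-16-2-3p (-0.32) and miR-19a-3p (-0.27). Among the 205 with at least 200 counts, those nearest to miR-22-5p were let-7a-5p, miR-9-5p, miR-135b-5p, let-7b-5p and miR-582-3p, all between 0.02 and 0.04. Likeness is over 2 libraries only.

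Other miRNAs of pathways with which miR-22 is linked were read from lists, each without miR-22, and set beside the 339 compared miRNAs (miR-22 included), of which 137 (40.4%) were below 0. Signs are those with the mature total, and a ratio above 0 that is nearer to 0 than the largest shift (-0.20) turns under at least 1 other scaling.

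HIF1A is the oxygen-regulated subunit of the transcription factor HIF-1. Of 9 miRNAs reported to target HIF1A, 8 were listed and 7 compared (miR-155-5p, at 7 and 26 counts, was too low), with 5 below 0 and 2 above, a median of -0.14 and 0 past the rule of size. miR-17-5p, miR-18a-5p and miR-20a-5p, all of the miR-17~92 cluster, were at -0.14, -0.14 and -0.55, and miR-138-5p at 0.16. miR-107 was at -0.24 (-0.48 to -0.002). The intervals of miR-199a-5p (-0.19, -0.45 to 0.08) and miR-20b-5p (0.21, -0.21 to 0.65) held 0. The median was -0.25 under TMM and -0.33 without the most abundant miRNAs. Both scalings lower all ratios together, so it could not have turned. miR-20a-5p was the 1 member below miR-22-3p.

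MIR22 has been described as a gene induced by p53. Of 10 other p53-linked miRNAs, 9 were listed and compared, with 5 above 0 and 4 below, and 0 past the rule of size. Their median was 0.04, which turned to -0.07 with TMM. miR-34a-5p was at 0.10, miR-34c-5p at 0.20 and miR-192-5p at 0.04, and miR-34b-5p, at -0.51 (-0.67 to -0.36), was the 1 below miR-22-3p. The other arm of its hairpin, miR-34b-3p (69 and 196 counts), was at 0.57.

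Like MIR22, a group of miRNAs is made from named long non-coding host transcripts. Of 11 such miRNAs, all were listed and 10 compared (again without miR-155-5p), with 8 above 0, 2 below and a median of 0.35, which was 0.15 without the most abundant miRNAs. miR-210 and miR-221-3p were past the rule of size, 2 of 10 beside 3.54% of all. miR-22-3p was below all 10 on this list, of which miR-29c-3p (-0.23) and miR-17-5p (-0.14) were the nearest. That result depends on which miRNAs of a transcript were put on the list. In the cluster of miR-17-5p but not on the list, miR-20a-5p (-0.55) was below miR-22-3p and miR-18a-5p (-0.14) above it. The long transcripts themselves, MIR22HG included, are not measured at full length in small RNA libraries.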

How the data were processed

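Small RNAs of A549 cells were counted in 1 normoxia and 1 hypoxia library. The authors deposited raw counts per feature, not normalized, with hg19 named as genome build in the submitters' processing notes. For SOLiD data the methods name LifeScope and miRBase without naming this experiment, and the handling of reads shared between features is not given in these sources. The lowest summed count of a listed feature is 3.

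Counts were scaled to the total of mature miRNA counts (4514818 and 8600160). Shares and ratios have exact 95% binomial intervals (scipy 1.17.1, Python 3.11.15), and there is no test, as each condition has 1 library. A prior count of 2 was used for the comparison across miRNAs. Alternatives were TMM scaling (edgeR 4.0.16, R 4.3.3), size factors (DESeq2 1.42.0), other totals, prior counts, filters and thresholds, and thinning of the deeper library. The hairpin was folded with RNAfold 2.7.2. The calculations were tested on simulated data.

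The miRNAs named are the arms of miR-22, those sharing a seed, the members of the lists, the 5 neighbours in rank on either side, the 5 nearest in log2 ratio, the 5 hairpins nearest in arm ratio, the features within 1 Mb, miR-210 and miR-21-5p. Beyond this rule, the most abundant miRNAs with lower ratios, the largest differences in CPM, the hairpins with a higher arm ratio and the nearest sequences were named after their values were seen. Members, lists and tests were chosen with earlier results of these data known. The result of 1 list is not reported here.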

Additional observations from a re-analysis of the deposited data

How the results depend on the processing

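No paired analysis was possible because neither condition was replicated, so no library could be left out either. Each scaling shifts all log2 ratios together. The log2 ratio of miR-22-3p, -0.35, was -0.47 with TMM, -0.42 with DESeq2 size factors, -0.45 with all counts, -0.54 without miR-21-5p and -0.55 without the 10 most abundant miRNAs. That of miR-22-5p, 0.03, was -0.15 without miR-21-5p and -0.16 without the 10 most abundant, and below 0 in 5 of its 8 alternatives. The share of miR-22-3p out of all counts was 1.64% for normoxia and 1.199% for hypoxia, and 8.41% and 5.78% out of mature counts without miR-21-5p. The share of miR-22-5p was 0.0137% and 0.0131% with all counts, and 0.0702% and 0.0631% without miR-21-5p. By the rule of size, 5 miRNAs were higher and 18 lower without the 10 most abundant in the totals, 6 were lower at a log2 threshold of 1, and 113 were higher and 64 lower without a filter, as 859 were then considered. The arm ratio of miR-22 moved by less than its counting error under thinning (log2 change -0.41) and with 0.5 added to each count (-0.39). Depth limits the hairpin row, miR-212-5p and, outside the mature total, miR-132-5p, for which no direction can be read.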
